A study of Rattus norvegicus with 9 samples.

Results

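The genes described here are the chemokines and their receptors, as measured in whole rat liver. They were taken by name from the gene symbols of the deposited table: symbols that begin with Ccl, Cxcl, Cx3cl1 or Xcl1 for the ligands, and with Ccr, Cxcr, Cx3cr1 or Ackr for the receptors. The rule found 45 genes, 29 ligands and 16 receptors, among the 14377 genes that had a symbol of their own on the array. Liver RNA from 9 male Sprague–Dawley rats was hybridised to Affymetrix rat genome expression arrays, 1 array per rat and 3 rats per group. Vehicle rats 3, 4 and 5 received vehicle alone. CCl4 rats 1, 2 and 3 received carbon tetrachloride, a hepatotoxin that causes fibrosis, mixed with olive oil and given into the peritoneum in 2 injections a week over 8 weeks. CCl4+Rot rats 4, 5 and 6 received the same toxin and also rottlerin, an activator of BK potassium channels, injected into the peritoneum at 2.5 mg/kg 2 weeks after CCl4 was begun. Whether rottlerin was injected again is not given in the sources used here. The numbers are those in the labels, and a number that occurs in more than 1 group stands for different rats. No group received rottlerin without CCl4. The age of the rats is not given in the sources used here.

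Chemokines are small secreted proteins that guide migrating cells along gradients, and each acts through G protein-coupled receptors on the cell that moves. Inflammatory chemokines are induced by cytokines during injury and draw monocytes, T cells and neutrophils into a tissue, whereas homeostatic chemokines place lymphocytes and progenitors in a resting organ. Atypical receptors bind the same ligands without G protein signalling and remove or store them. In liver, chemokines come from Kupffer cells, sinusoidal endothelium, stellate cells and hepatocytes.

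Each transcript was read by probe sets, groups of short oligonucleotides that give a log2 signal and a detection call of present, marginal or absent on each array. The 45 genes had 58 probe sets, and 8 genes had more than 1. Where a gene had several, the brightest on average over the 9 arrays stood for it. Signals were compared between rats for the same probe set, never between genes. Differences were tested with limma over the 31042 probe sets that are not controls. A call needed both a change of 1.5-fold or more and an adjusted p (Benjamini-Hochberg) under 0.05. A change was taken as measured where the gene was present on at least 1 array in each of the groups compared. With 3 rats against 3, an exact two-sided permutation test of a single gene cannot give a p below 0.1.

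The array of CCl4 rat 3 stood apart from the others. It had 12714 probe sets called present against 15550 to 16849 elsewhere, and a median log2 signal of 7.81 against 6.79 to 7.01. Of the 45 genes, 13 were present on it against 17 to 23 on the other arrays. The main values that rest on the CCl4 group are therefore also given without this rat where they differ, and the plot of changes shows both values of each gene in it. The tissue label was checked against hepatocyte markers: 6 of the 7 listed genes were on the array, and all 6, albumin among them, were present on all 9 arrays.

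A signal was called present on at least 1 array for 26 of the 45 genes, or 57.8%, against 74.6% of all genes on the array. The 10 genes that were present on all 9 arrays were the ligands Ccl4, Ccl6, Ccl9, Cxcl9, Cxcl10, Cxcl11, Cxcl12 and Cxcl13 and the receptors Cxcr3 and Ackr4. A further 12 genes were present on 3 to 8 arrays, among them the ligands Ccl3, Ccl5, Ccl19, Ccl21, Ccl24, Cxcl1, Cxcl14 and Cxcl16, and the receptors Cxcr4, Cxcr7 and Cx3cr1. Cxcr7 is the older name that the table gives for the atypical receptor Ackr3. Ccr2 was present on 2 arrays, and Ccl2, Ccl22 and Cxcl2 on 1 each. The remaining 19 genes were present on no array. They were the ligands Ccl7, Ccl11, Ccl17, Ccl20, Ccl27, Ccl28, Cx3cl1, Cxcl3, Cxcl6 and Xcl1, and the receptors Ackr2, Ccr1, Ccr3, Ccr4, Ccr6, Ccr10, Cxcr1, Cxcr2 and Cxcr5. For these 19 no level or change is given, since a signal called absent is not told from background. Their median signal was 6.50 on the array of CCl4 rat 3 and 4.80 to 5.83 on the other arrays.

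**Figure D1:**
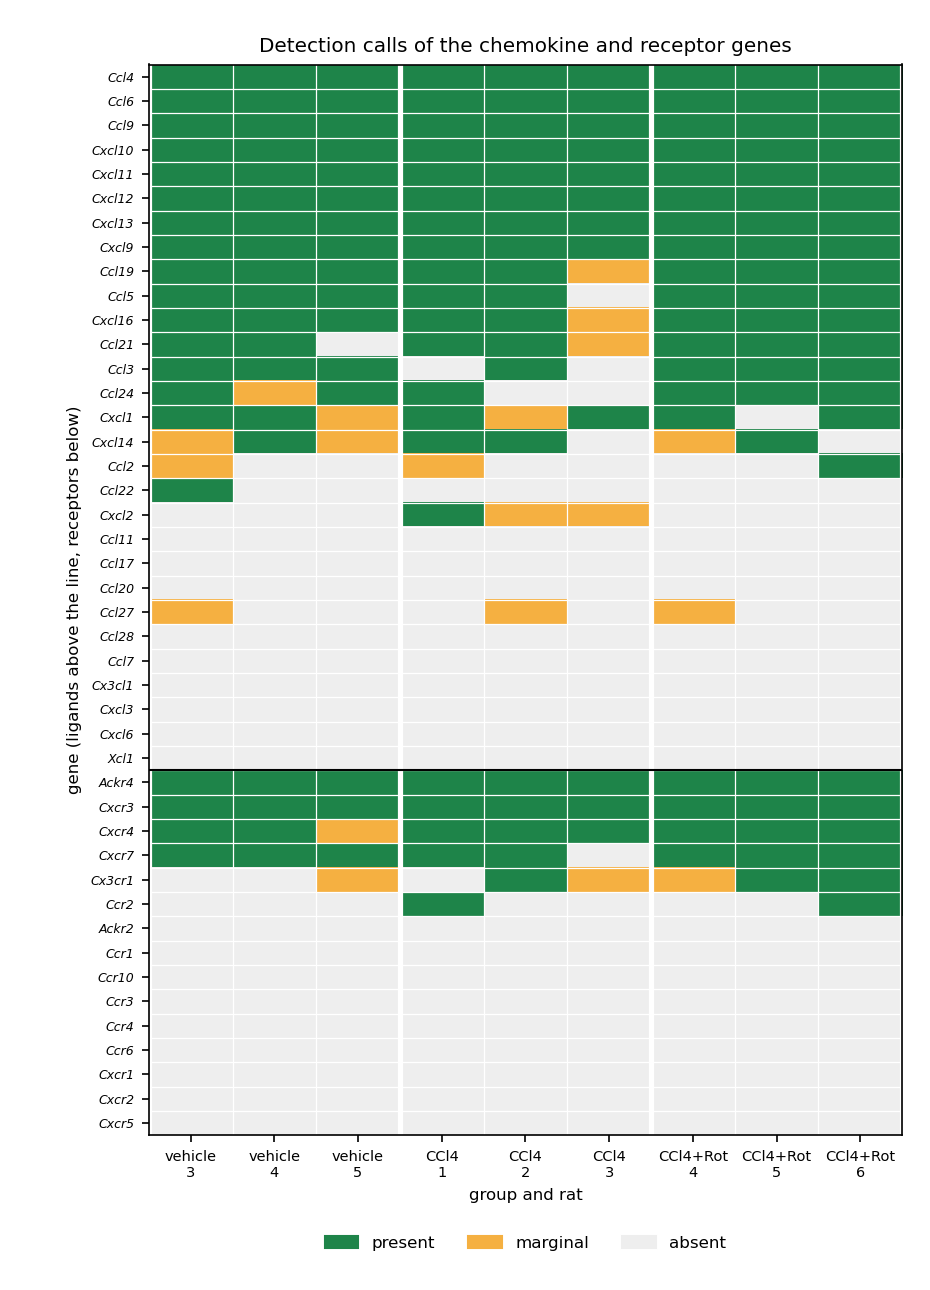
Detection call of 44 of the genes (rows, ligands above the line and receptors below) on each of the 9 arrays (columns, by group and rat number), in green for present, orange for marginal and grey for absent. The 10 genes present on all 9 arrays head each block, and the column of CCl4 rat 3 has the fewest present calls.

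By the table's chromosome column, whose genome build is not named, chromosomes 10, 8 and 14 held the most of these genes. Chromosome 10 held 10 of them, among them Ccl2, Ccl3, Ccl4, Ccl5, Ccl6, Ccl9 and Cxcl16. Chromosome 8 held 9, all of them receptors, and chromosome 14 held 8, all of them CXC ligands. Of these, 7 of 10 on chromosome 10, 4 of 9 on chromosome 8 and 6 of 8 on chromosome 14 were present on at least 1 array.

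Of the ligands of Cxcr3, Cxcl9 was lower in all rats given CCl4 and Cxcl10 in CCl4 rats 1 and 2. Cxcl11 was higher in CCl4+Rot than in CCl4 rats, and CCl4+Rot overlapped vehicle. Cxcl9, Cxcl10 and Cxcl11 are the chemokines that interferon-gamma induces, and they draw activated T cells and natural killer cells through the receptor Cxcr3. The log2 signal of Cxcl9 (probe set 1382454_at) was 9.81, 10.14 and 10.13 in vehicle rats 3 to 5, 7.71, 8.26 and 8.85 in CCl4 rats 1 to 3, and 8.56, 8.38 and 9.19 in CCl4+Rot rats 4 to 6. Every vehicle rat thus lay above every rat that had received CCl4, with or without rottlerin. The mean was 3.37-fold lower in CCl4 than in vehicle (log2 change -1.75, SE 0.335; limma, adjusted p = 0.199) and 2.49-fold lower in CCl4+Rot (log2 change -1.32; adjusted p = 0.308). Neither was a call by limma. Where limma let the spread follow the signal and used robust estimation, both were called, at adjusted p = 0.0127 and 0.0472, in a range over the alternatives of 0.0127 to 0.494 and 0.0472 to 0.758. CCl4+Rot and CCl4 rats overlapped for Cxcl9 (log2 change 0.43, SE 0.335; limma, adjusted p = 0.787). Without CCl4 rat 3 they did not overlap, and the log2 change was 0.72. The other probe set of Cxcl9, also present on all arrays, read 9.04, 9.77 and 9.86 in vehicle, 7.69, 8.01 and 9.01 in CCl4 and 8.30, 8.15 and 8.89 in CCl4+Rot, with log2 changes from vehicle of -1.32 and -1.11.

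Cxcl10 read 8.49, 8.63 and 8.28 in vehicle, 7.26, 7.47 and 8.67 in CCl4, and 8.36, 8.02 and 8.27 in CCl4+Rot. CCl4 rats 1 and 2 lay below all other rats, and CCl4 rat 3 above all of them. The log2 change from vehicle was -0.66 (SE 0.361; limma, adjusted p = 0.489) with the 3 CCl4 rats and -1.10 without rat 3, where the fit with trend and robust estimation called it at adjusted p = 0.031 (over the other alternatives, 0.216 to 0.769). In CCl4+Rot the log2 change from CCl4 was 0.42 with rat 3 and 0.85 without it, and the groups overlapped only with rat 3. Cxcl11 read 11.18, 10.89 and 11.01 in vehicle, 10.61, 10.69 and 10.89 in CCl4, and 11.31, 11.07 and 11.01 in CCl4+Rot. All 3 CCl4+Rot rats lay above all 3 CCl4 rats, by a log2 change of 0.40 (SE 0.171, 1.32-fold; limma, adjusted p = 0.75), and the vehicle and CCl4 rats met at 10.89. Cxcr3 itself read 7.49, 7.21 and 7.74 in vehicle, 6.60, 7.24 and 8.09 in CCl4, and 7.15, 7.37 and 7.58 in CCl4+Rot. Its groups overlapped in every comparison, and the CCl4 rats had the widest spread (SD 0.749).

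Markers of the cells that carry Cxcr3, and the cytokine that induces its ligands, were often not detected. Of 17 listed T and NK cell markers, 14 were on the array and 8 were present on at least 1 array, while Cd3d, Cd4, Cd8a, Cd8b, Lck and Cd2 were present on none. The summed antilog signal of the 14 was 1256 to 1695 in vehicle, 1178 to 1878 in CCl4 rats 1 and 2, 3156 in CCl4 rat 3 and 1785 to 2126 in CCl4+Rot. Here and in the marker sums below, all listed markers on the array are summed, including those present on no array. Part of such a sum, as of the 3156, is therefore not told from background. Ifng, which encodes interferon-gamma, was present on 2 arrays. The part of these cells in the chemokine values was not tested. In whole liver, fewer cells of a type and less RNA per cell cannot be told apart.

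The upstream sequences of these ligands are shown because Cxcl9, Cxcl10 and Cxcl11 lie side by side on chromosome 14 and are known interferon targets, and that of Cxcl1, a known target of NF-kappa B on the same chromosome, is set beside them. RefSeq upstream sequences (GRCr8) were matched for 35 of the 45 genes. The 250 bases before the start of each gene were searched on both strands for the interferon-stimulated response element core GAAANNGAAA (TTTCNNTTTC on the other strand), which 3.41% of 33469 promoters hold, the interferon-gamma-activated site TTCNNNGAA, which 7.67% hold, and the kappa B motif GGGANNTTCC (GGAANNTCCC on the other strand), which 1.08% hold. Matches are in capitals. Cxcl9 (chr14:16006916-16007165, plus strand) had none. Cxcl10 (chr14:15988816-15989065, plus strand) had GAAAGTGAAA from base -243 to -234 and kappa B matches from -187 to -178 and from -128 to -118, the last a pair of overlapping matches. Cxcl11 (chr14:15973478-15973727, plus strand) had TTCTAGGAA from -250 to -242 and a kappa B match from -74 to -65. Cxcl1 (chr14:17479322-17479571, minus strand) had overlapping kappa B matches from -84 to -74. Base -1 is the last base before the start. A match describes letters and is not a measured binding site.
Cxcl9: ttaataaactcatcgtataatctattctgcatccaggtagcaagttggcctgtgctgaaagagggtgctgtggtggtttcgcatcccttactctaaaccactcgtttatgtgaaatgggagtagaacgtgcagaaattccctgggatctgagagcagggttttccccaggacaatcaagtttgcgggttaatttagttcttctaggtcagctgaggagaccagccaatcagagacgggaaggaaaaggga
Cxcl10: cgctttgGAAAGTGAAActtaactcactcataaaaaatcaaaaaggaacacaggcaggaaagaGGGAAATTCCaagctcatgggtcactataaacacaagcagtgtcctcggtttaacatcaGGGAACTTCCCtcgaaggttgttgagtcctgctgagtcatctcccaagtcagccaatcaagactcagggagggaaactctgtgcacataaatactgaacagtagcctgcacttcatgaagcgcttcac
Cxcl11: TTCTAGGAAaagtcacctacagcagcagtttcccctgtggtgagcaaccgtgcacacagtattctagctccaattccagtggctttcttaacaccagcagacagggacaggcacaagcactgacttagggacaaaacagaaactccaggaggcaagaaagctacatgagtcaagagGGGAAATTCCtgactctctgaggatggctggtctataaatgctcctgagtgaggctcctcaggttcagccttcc
Cxcl1: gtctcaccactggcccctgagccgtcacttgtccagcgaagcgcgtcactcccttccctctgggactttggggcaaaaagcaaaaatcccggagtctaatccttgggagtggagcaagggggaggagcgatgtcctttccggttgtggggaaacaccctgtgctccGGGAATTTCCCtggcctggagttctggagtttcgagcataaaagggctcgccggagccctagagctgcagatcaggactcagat

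Among the inflammatory CC chemokines, Ccl5 was lower in all CCl4 rats than in all rats of the other groups. Ccl5, also named RANTES, recruits T cells and monocytes. It read 9.93, 9.47 and 9.81 in vehicle, 8.67, 9.01 and 8.83 in CCl4, and 9.62, 9.89 and 9.36 in CCl4+Rot, and the 8.83 of CCl4 rat 3 was called absent. All CCl4 rats lay below all vehicle rats and below all CCl4+Rot rats, and the latter groups overlapped. The mean was 1.87-fold lower in CCl4 than in vehicle (log2 change -0.90, SE 0.213; limma, adjusted p = 0.231) and 1.73-fold higher in CCl4+Rot than in CCl4 (log2 change 0.79; adjusted p = 0.65). With trend and robust estimation the change from vehicle was called, at adjusted p = 0.0363 (alternatives, 0.0363 to 0.472), and without CCl4 rat 3 it was not, at 0.065. The change with rottlerin was not called, at 0.286. CCl4+Rot differed from vehicle by a log2 change of -0.11 (SE 0.213).

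Ccl3 and Ccl4, the macrophage inflammatory proteins, gave overlapping groups. Ccl3 read 7.23, 6.78 and 7.53 in vehicle, 6.39, 7.23 and 7.96 in CCl4, and 7.83, 7.34 and 8.48 in CCl4+Rot, and CCl4 rats 1 and 3 were called absent. Without CCl4 rat 3, all CCl4+Rot rats lay above the CCl4 rats, by a log2 change of 1.07 against 0.69 with it. Ccl4 read 8.03, 7.79 and 7.54 in vehicle, 7.79, 7.78 and 7.22 in CCl4, and 8.04, 7.78 and 8.57 in CCl4+Rot. For Ccl4 no group lay apart from another.

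Ccl6 and Ccl9, chemokines of rodents that act on monocytes and macrophages, were present in every rat. Ccl6 read 12.87, 12.22 and 12.67 in vehicle, 12.32, 12.84 and 12.42 in CCl4, and 13.00, 12.93 and 13.19 in CCl4+Rot. Ccl9 read 13.99, 14.16 and 13.91 in vehicle, 13.94, 13.98 and 13.78 in CCl4, and 14.28, 14.06 and 14.15 in CCl4+Rot. For each gene every CCl4+Rot rat was higher than every CCl4 rat, by a log2 change of 0.51 (SE 0.232) for Ccl6 and 0.26 (SE 0.156) for Ccl9, with limma at adjusted p = 0.752 and 0.765. Ccl6 was also higher in every CCl4+Rot rat than in every vehicle rat (log2 change 0.45). The Kupffer cell and macrophage markers, of which 8 of 12 were on the array and all 8 present, had a summed signal of 23259 to 27805 in CCl4+Rot against 16817 to 23763 in CCl4 and 17461 to 23515 in vehicle. All 8 had a higher mean in CCl4+Rot than in CCl4, and their part in the Ccl6 and Ccl9 values was not tested. Ccl24, an attractant of eosinophils, read 6.44, 6.02 and 7.03 in vehicle, 7.73, 5.15 and 7.24 in CCl4, and 6.93, 6.11 and 6.62 in CCl4+Rot, with overlapping groups.

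Ccl21 was the ligand with the highest fold over vehicle. It binds Ccr7 on dendritic cells and naive T cells and, with Ccl19, marks lymphatic vessels and lymphoid tissue. It read 8.26, 8.11 and 7.95 in vehicle, 9.60, 11.42 and 9.82 in CCl4, and 10.94, 10.56 and 10.71 in CCl4+Rot. Vehicle rat 5 was called absent and CCl4 rat 3 marginal. Every rat that had received CCl4 lay above every vehicle rat, and CCl4 and CCl4+Rot rats overlapped. The mean was 4.51-fold higher in CCl4 (log2 change 2.17, SE 0.45; limma, adjusted p = 0.213) and 6.19-fold higher in CCl4+Rot (log2 change 2.63; adjusted p = 0.191). With trend and robust estimation both were called, at adjusted p = 0.0283 and 0.0118, in a range over the alternatives of 0.0283 to 0.503 and 0.0118 to 0.584. The change in CCl4 was 2.40 on the log2 scale without CCl4 rat 3 and 1.60 without CCl4 rat 2.

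Ccl19 read 7.10, 7.70 and 7.53 in vehicle, 7.33, 8.09 and 8.22 in CCl4, and 7.94, 7.79 and 7.85 in CCl4+Rot. It was higher in every CCl4+Rot rat than in every vehicle rat, by a log2 change of 0.42 (SE 0.276, 1.33-fold; limma, adjusted p = 0.807). Ackr4, the atypical receptor that takes up Ccl19 and Ccl21, read 6.74, 7.50 and 7.94 in vehicle, 7.80, 8.16 and 8.91 in CCl4, and 8.36, 7.84 and 7.91 in CCl4+Rot, and its groups overlapped. Its log2 change in CCl4 was 0.90 (SE 0.392, 1.86-fold; limma, adjusted p = 0.411), or 0.59 without CCl4 rat 3. Cxcl13, which gathers B cells, read 7.50, 8.95 and 7.55 in vehicle, 6.10, 8.46 and 7.77 in CCl4, and 8.73, 9.10 and 8.41 in CCl4+Rot. It was 2.46-fold higher in CCl4+Rot than in CCl4 (log2 change 1.30, SE 0.645; limma, adjusted p = 0.758), with CCl4 rat 2 inside the range of CCl4+Rot. The log2 change was 0.63 without CCl4 rat 1, which had the lowest signal, and 1.46 without CCl4 rat 3. The 4 B and plasma cell markers on the array, of 8 listed, were all present and summed to 582 to 793 in vehicle, 1357 to 1694 in CCl4 rats 1 and 2, 980 in CCl4 rat 3 and 1164 to 1522 in CCl4+Rot. Of these, Blnk was called between CCl4+Rot and vehicle with trend and robust estimation. Their part in the values of Ccl19, Ccl21 and Cxcl13 was not tested.

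**Figure D2:**
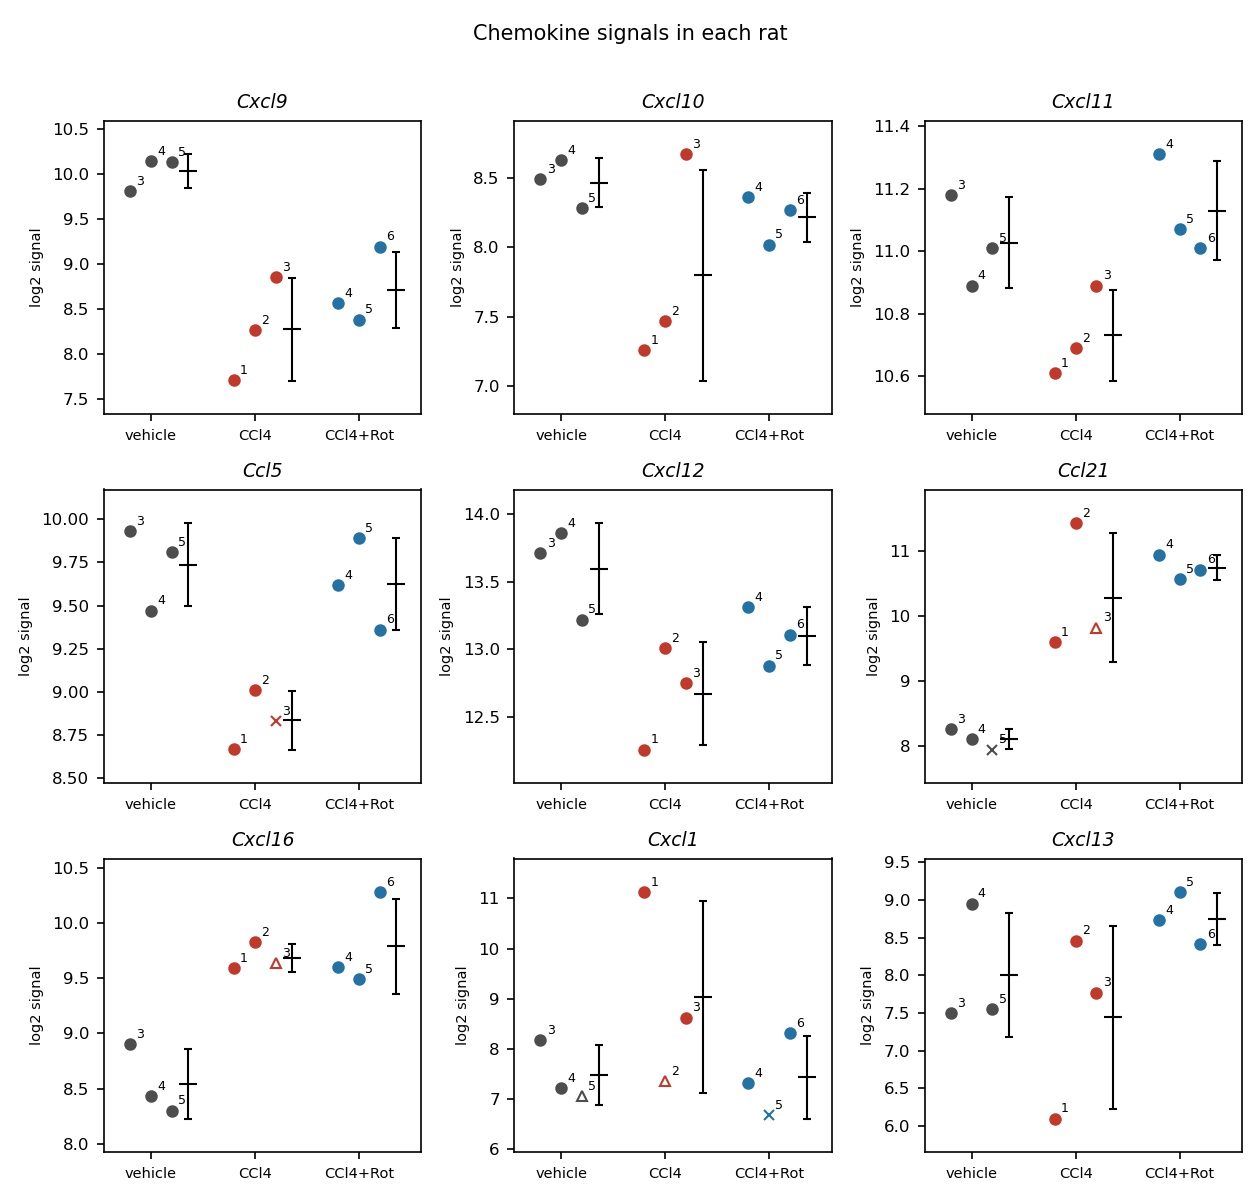
Log2 signal of 9 chemokines in each rat (numbers beside the points) by group, filled circles for present, open triangles for marginal and crosses for absent calls, with the group mean and SD (n = 3) to the right of each group. The vehicle rats lie above all others for Cxcl9 and below all others for Ccl21 and Cxcl16, the CCl4 rats lie below all others for Ccl5, and the highest Cxcl1 signal is CCl4 rat 1 alone at 11.12.

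Cxcl16 was higher in all rats given CCl4. It is made as a membrane-bound chemokine and scavenger receptor by macrophages and endothelium. It read 8.90, 8.43 and 8.30 in vehicle, 9.59, 9.83 and 9.64 in CCl4, and 9.60, 9.49 and 10.28 in CCl4+Rot. No rat given CCl4 lay within the vehicle range. The mean was 2.21-fold higher in CCl4 (log2 change 1.14, SE 0.266; limma, adjusted p = 0.231) and 2.37-fold higher in CCl4+Rot (log2 change 1.25; adjusted p = 0.226). With trend and robust estimation both were called, at adjusted p = 0.0322 and 0.0213, in a range over the alternatives of 0.0322 to 0.54 and 0.0213 to 0.639, and without CCl4 rat 3 the call in CCl4 was lost, at 0.0592. CCl4+Rot and CCl4 differed by a log2 change of 0.10 (SE 0.266).

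Cxcl12 and Cxcr4 lay on opposite sides of vehicle in CCl4. Cxcl12 is the homeostatic ligand that retains progenitor cells and acts on stellate cells and endothelium, Cxcr4 is its signalling receptor, and Cxcr7 is its scavenger. Cxcl12 read 13.71, 13.86 and 13.22 in vehicle, 12.26, 13.01 and 12.75 in CCl4, and 13.31, 12.88 and 13.11 in CCl4+Rot. All CCl4 rats lay below all vehicle rats, 1.90-fold on average (log2 change -0.92, SE 0.266; limma, adjusted p = 0.271), and neither fit called it, with trend and robust estimation at 0.0531. The other 2 probe sets of Cxcl12 gave log2 changes of -0.42 and -0.62, with overlapping groups. They parted over rottlerin: 1369633_at was higher in every CCl4+Rot rat than in every CCl4 rat (log2 change 0.42, SE 0.207), as against -0.06 for 1387655_at.

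Cxcr4 read 7.83, 7.66 and 7.37 in vehicle, 8.11, 8.99 and 8.27 in CCl4, and 8.47, 8.12 and 8.66 in CCl4+Rot. Every rat given CCl4 lay above every vehicle rat, 1.79-fold in CCl4 (log2 change 0.84, SE 0.282; limma, adjusted p = 0.317) and 1.74-fold in CCl4+Rot (log2 change 0.80; adjusted p = 0.491). Its other 2 probe sets also had no overlap with vehicle, at log2 changes of 1.09 and 0.98 in CCl4 and 0.85 and 0.82 in CCl4+Rot. Cxcr7 read 8.78, 8.19 and 8.23 in vehicle, 8.75, 8.82 and 8.64 in CCl4, and 8.61, 8.24 and 8.51 in CCl4+Rot. The signal of CCl4 rat 3 was called absent. All CCl4+Rot rats lay below all CCl4 rats, by a log2 change of -0.28 (SE 0.211; limma, adjusted p = 0.784). Over the alternatives that change ran from -0.36 to -0.03. Against vehicle the log2 change of Cxcr7 in CCl4 was 0.33, which became -0.02 when each array was centred on its median. The 9 stellate cell and myofibroblast markers were all present, and their summed signal was 9668 to 15425 in vehicle, 19723 to 35884 in CCl4 and 30370 to 38400 in CCl4+Rot. Trend and robust estimation called 2 of them against vehicle in CCl4 and 4 in CCl4+Rot, all higher. The 7 endothelial markers on the array, of 9 listed, summed to 9966 to 11087, 7599 to 10521 (10024 and 10521 without CCl4 rat 3) and 10250 to 11250. The part of either cell type in the Cxcl12 and Cxcr4 values was not tested.

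**Figure D3:**
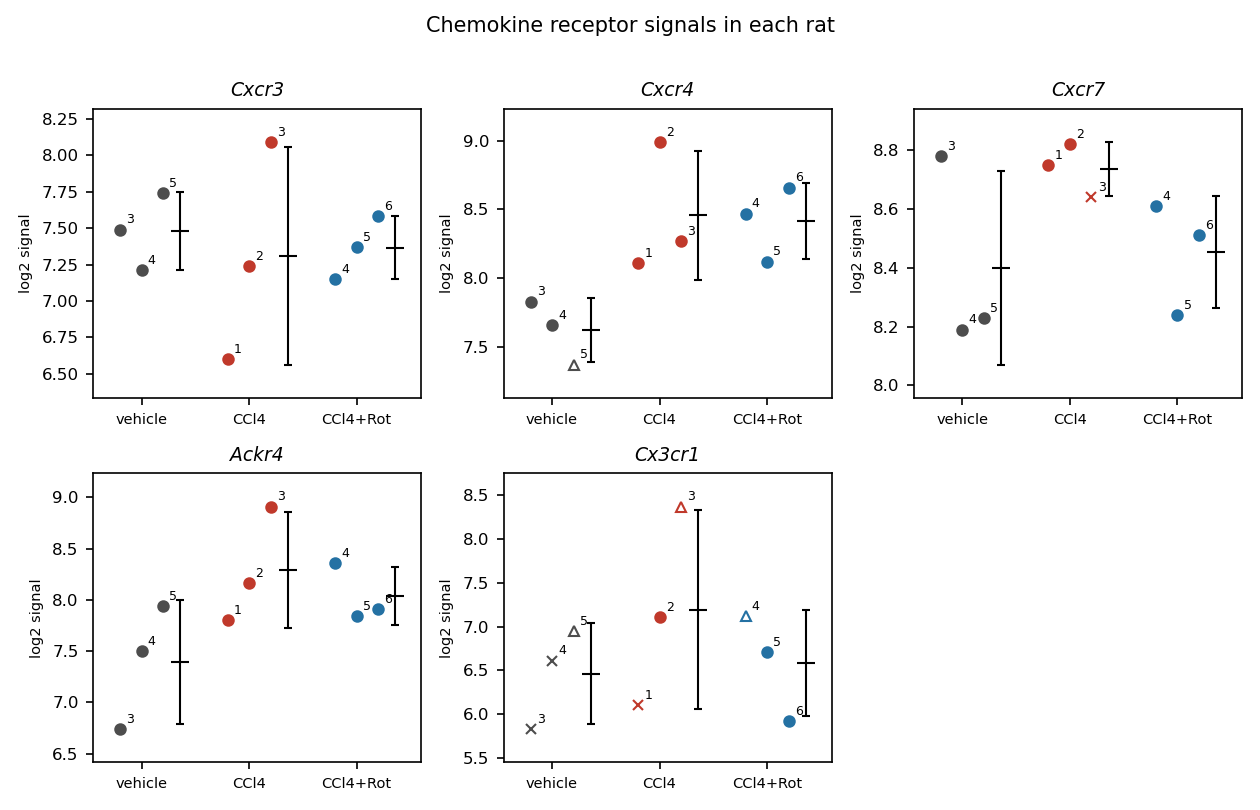
Log2 signal of 5 chemokine receptors in each rat (numbers beside the points) by group, filled circles for present, open triangles for marginal and crosses for absent calls, with the group mean and SD (n = 3) to the right of each group. For Cxcr4 all 6 rats given CCl4 lie above the 3 vehicle rats, for Cxcr7 the CCl4+Rot rats lie below the CCl4 rats, and the groups overlap for Cxcr3, Ackr4 and Cx3cr1.

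Of the neutrophil chemokines, Cxcl1 was present on 6 arrays, with 1 rat far above the others, and Cxcl2 was present on 1. Cxcl1, which draws neutrophils through Cxcr2, read 8.17, 7.21 and 7.05 in vehicle, 11.12, 7.36 and 8.62 in CCl4, and 7.31, 6.68 and 8.32 in CCl4+Rot. CCl4 rat 1 stood alone at 11.12, and the other 8 rats lay between 6.68 and 8.62. The log2 change in CCl4 was 1.56 with it (SE 0.92; limma, adjusted p = 0.519) and 0.52 without it, and the log2 change of CCl4+Rot from CCl4 was -1.60 with it and -0.56 without it. Cxcl2, a close relative, was present in CCl4 rat 1 only and read 5.82, 5.69 and 5.98 in vehicle, 6.12, 5.31 and 7.29 in CCl4, and 5.52, 5.81 and 5.84 in CCl4+Rot. Its highest signal, 7.29 in CCl4 rat 3, was called marginal. Cxcl3, Cxcl6, Cxcr1 and Cxcr2 were present on no array. Of 10 listed neutrophil markers, 5 were on the array and 4 were present, and their summed signal was 284 to 1203 in vehicle, 619 to 1121 in CCl4 and 1337 to 2338 in CCl4+Rot. Of the 3 measured between CCl4+Rot and CCl4, Mmp8, the neutrophil collagenase, was lower with rottlerin (log2 change -0.93), with overlapping groups. S100a8 and S100a9, calcium-binding proteins abundant in neutrophils, were higher in every CCl4+Rot rat than in every CCl4 and every vehicle rat, with log2 changes from vehicle of 2.49 and 2.18 (limma, adjusted p = 0.413 and 0.383).

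The monocyte axes could hardly be read. Ccl2, the main attractant of monocytes through Ccr2, was present in CCl4+Rot rat 6 alone. It read 7.43, 7.22 and 7.35 in vehicle, 8.04, 7.58 and 8.20 in CCl4, and 7.49, 7.88 and 8.56 in CCl4+Rot. Every rat given CCl4 thus read above every vehicle rat, but no change is given for CCl4, which had no present call. The CCl4+Rot mean was 1.56-fold the vehicle mean (limma, adjusted p = 0.651). This is not a lower bound, since CCl4+Rot rats 4 and 5 were called absent. For the bounds given below, the signals of the group without a present call are raised to the dimmest present signal of their arrays where they lie under it. Cx3cr1, the fractalkine receptor of monocytes, was present on 3 arrays and read 5.83, 6.61 and 6.95 in vehicle, 6.10, 7.11 and 8.37 in CCl4, and 7.12, 6.71 and 5.92 in CCl4+Rot, with overlapping groups. Cxcl14, a ligand of epithelia and fibroblasts whose receptor is not settled, read 7.09, 7.23 and 7.88 in vehicle, 7.60, 7.52 and 7.50 in CCl4, and 7.03, 7.24 and 6.77 in CCl4+Rot. All CCl4+Rot rats lay below all CCl4 rats, by a log2 change of -0.53 (SE 0.244; limma, adjusted p = 0.752). Over the alternatives that change ran from -0.64 to -0.21. Cxcl14 was present on only 4 arrays, 1 of them in CCl4+Rot, and CCl4 rat 3 was called absent. Its other probe set was present on no array, and there the groups overlapped.

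Counted over the family, limma called 0 of the 45 genes between CCl4 and vehicle, against 0% of all probe sets. With trend and robust estimation it called 4, namely Cxcl9 and Ccl5 lower and Ccl21 and Cxcl16 higher, against a background of 1.12%. At an unadjusted p under 0.05 there were 7, against 12.4% of probe sets: those 4 with Cxcl12, Cxcr4 and Cxcl6, the last of which was present on no array. Of the 21 genes with a measured change, 11 were higher and 10 lower in CCl4, with a median log2 change of 0.01 against 0.03 for all 9530 genes so measured. The groups did not overlap for 3 genes that were higher (Ccl21, Cxcl16 and Cxcr4), against 12.5% of genes, and for 3 that were lower (Cxcl9, Ccl5 and Cxcl12), against 11.9%. Without CCl4 rat 3 the number lower was 5, with Cxcl10 and Cxcl11, against 18.1% of genes in the same arrays. Both counts, out of 21 genes, are near the background. By role, 7 ligands were higher and 9 lower, and 4 of the 5 receptors were higher, with medians of -0.09 and 0.33. The directions of Cxcl14 and Cxcr7 turned to lower when each array was centred on its median, a scaling that removes the difference of 0.36 between the mean array medians of CCl4 and vehicle. That difference was -0.25 for CCl4+Rot against CCl4 and 0.11 for CCl4+Rot against vehicle.

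Between CCl4+Rot and CCl4, which tests what rottlerin added, limma called 0 of the 45 genes, as did the fit with trend and robust estimation, against 0.00322% of probe sets in either fit, or 1 probe set. At an unadjusted p under 0.05 there were 2, Ccl5 and the undetected Cxcl6, against 6.63%. Of 23 measured genes, 15 were higher and 8 lower with rottlerin, with a median log2 change of 0.22 against 0.01 for all 9721 genes. Among ligands 12 were higher and 4 lower (median 0.42), and among receptors 3 were higher and 4 lower (median -0.04). The groups did not overlap for 4 genes that were higher (Ccl5, Ccl6, Ccl9 and Cxcl11), against 7.23% of genes, and for 2 that were lower (Cxcl14 and Cxcr7), against 4.27%. Without CCl4 rat 3 the number higher was 7, with Ccl3, Cxcl9 and Cxcl10 added, against 13.5% of genes in the same arrays.

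Between CCl4+Rot and vehicle, limma called 0 of the 45 genes, against 0.0258% of probe sets. With trend and robust estimation it called 3, Cxcl9 lower and Ccl21 and Cxcl16 higher, against 0.776%. At an unadjusted p under 0.05 there were 5, those 3 with Cxcr4 and the undetected Cx3cl1, against 8.31%. Of 21 measured genes, 14 were higher and 7 lower, with a median log2 change of 0.14 against 0.02 for all 9533 genes. The groups did not overlap for 5 that were higher (Ccl19, Ccl21, Ccl6, Cxcl16 and Cxcr4), against 17.1% of genes, and for Cxcl9, which was lower, against 11.7%. The 3 comparisons use the same 9 arrays in pairs of groups, so their values are not independent of each other.

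**Figure D4:**
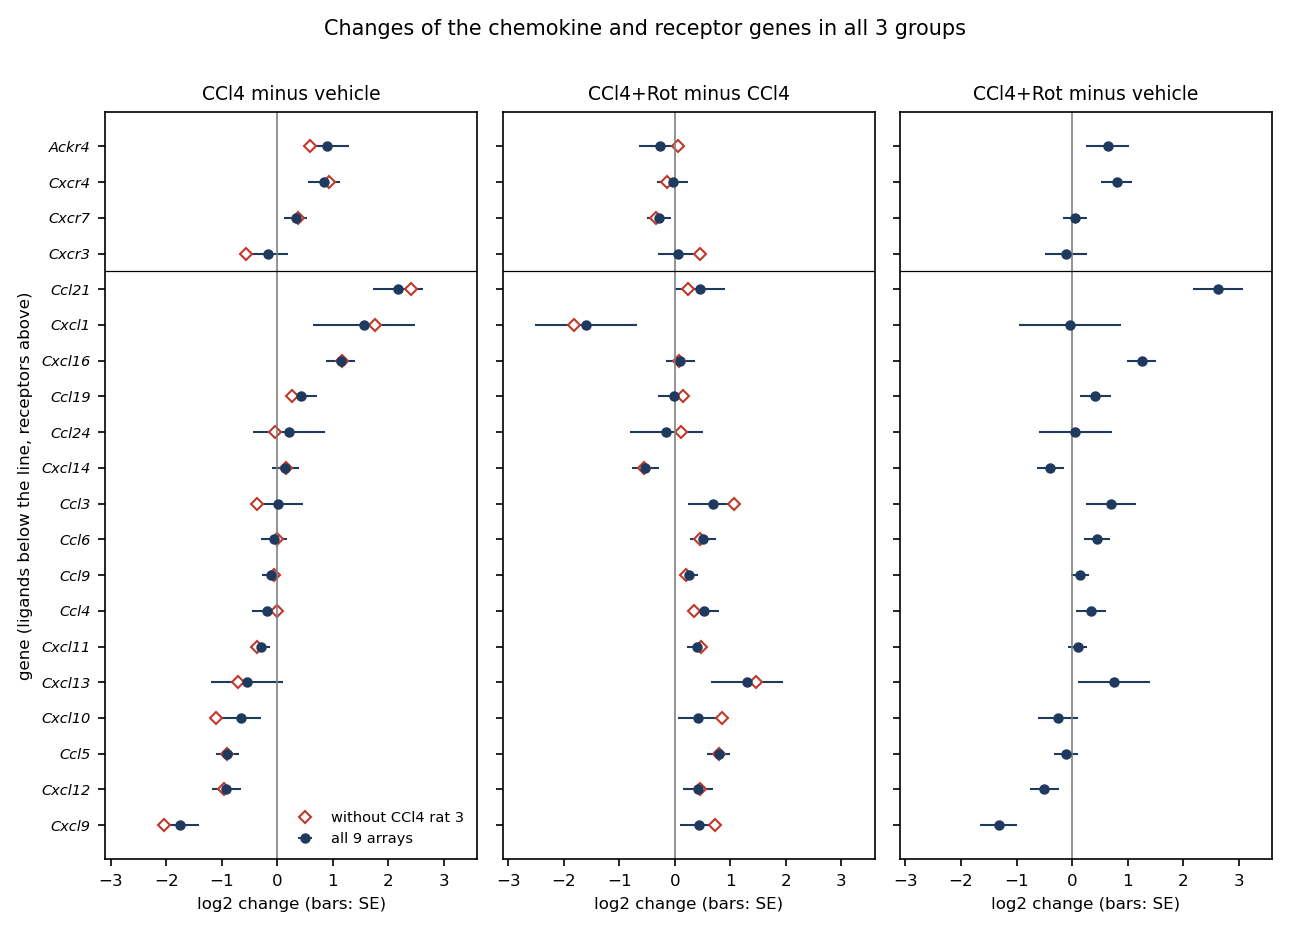
Log2 change of 20 genes measured in all 3 groups (16 ligands below the line, 4 receptors above) in each comparison, filled points with SE bars from limma over all 9 arrays and open diamonds without CCl4 rat 3. Cxcl9 lies at -1.75 and Ccl21 at 2.17 in CCl4 minus vehicle, 12 of the 16 ligands lie above 0 in CCl4+Rot minus CCl4, and Cxcl1 has the widest bar (SE 0.92).

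The rest of the chemokine system was followed through fixed lists of other genes. Of 13 further ligands and receptors, 6 were on the array. Pf4, the platelet chemokine also named Cxcl4, was present in all 6 rats given CCl4 and in no vehicle rat, and was at least 2.74-fold higher in CCl4 and 2.52-fold higher in CCl4+Rot, called with trend and robust estimation (adjusted p = 0.0106 and 0.0136) and not by limma (0.186 and 0.192). Rarres2, which encodes the attractant chemerin, was lower in every CCl4 rat than in every vehicle rat (log2 change -0.44, SE 0.156; limma, adjusted p = 0.337). Of 34 genes for signalling below the receptors, 27 were on the array and 24 were present. Among the 20 measured, 18 were higher in CCl4 and all 20 were higher in CCl4+Rot than in vehicle, and limma called none. Their median log2 changes were 0.26 and 0.47, against 0.03 and 0.02 for all genes so measured. The 0.26 is smaller than the 0.36 that centring each array on its median removes between CCl4 and vehicle. That 0.36 includes the array of CCl4 rat 3, whose median was 7.81. Without this rat the median of the 20 genes was 0.27, against 0.01 for all genes so measured. Between CCl4+Rot and vehicle centring removes 0.11. For 5 and 11 of the 20 genes the groups did not overlap, all higher, against 12.5% and 17.1% of all genes. Fgr, a Src family kinase of myeloid cells, had log2 changes of 1.07 and 1.05, and Coro1a and Rac2, which organise actin in leukocytes, had changes of 0.89 and 0.76 in CCl4+Rot with no overlap. Jak3, present on 5 arrays, was higher in every CCl4 rat than in every vehicle rat (log2 change 1.23, SE 0.318). With rottlerin Jak3 was lower in every CCl4+Rot rat than in every CCl4 rat (log2 change -0.89, SE 0.318).

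Among 21 inducers of chemokine genes, 19 were on the array and 14 were present, and Il6, Il4, Il13, Tgfb1 and Csf2 were present on none. In CCl4, 6 of the 11 measured were higher and 5 lower, and in CCl4+Rot against CCl4 again 6 and 5, with medians of 0.00 and 0.12. Nfkb2, a subunit of NF-kappa B, was higher in every CCl4+Rot rat than in every CCl4 rat, at a log2 change of 0.67 (SE 0.243; limma, adjusted p = 0.736). The 9 proteins that cut or bind chemokines were all present. Mmp12, the macrophage elastase, was higher in every CCl4 and CCl4+Rot rat than in every vehicle rat (log2 changes 3.76 and 2.56), and so was Mmp2, the gelatinase that cuts Cxcl12 (1.18 and 1.87). With trend and robust estimation both were called, at adjusted p = 0.00813 and 0.0414 for Mmp12 and 0.0406 and 0.00521 for Mmp2, and by limma neither was. Dpp4, a peptidase that trims several chemokines, had log2 changes of -0.21 and -0.19.

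Markers of further cells that a liver sample can hold were read in the same way. The 9 mast cell markers, of which 6 were present, summed to 631 to 750 in vehicle, 928 to 1328 in CCl4 rats 1 and 2, 2178 in CCl4 rat 3 and 1181 to 2138 in CCl4+Rot. That sum includes Tpsab1, Tpsb2 and Kit, which were present on no array. Dendritic cell markers, 5 of 6 on the array and 3 present, summed to 605 to 1214, 973 to 1227 and 1117 to 1434 in vehicle, CCl4 and CCl4+Rot. Their log2 changes in CCl4 against vehicle were 1.45 for Itgax and -1.76 for Clec9a (-1.25 without CCl4 rat 3), both with groups apart, and 0.46 for Cd83, which overlapped. Cholangiocyte markers, 5 of 6 on the array and 3 present, summed to 883 to 1050, 2520 to 5422 and 1214 to 2389 in that order, with no overlap between the groups. Of the present markers, Epcam and Krt19 had log2 changes of only 0.48 and 0.20 in CCl4 against vehicle. The third was Spp1, which encodes osteopontin and is also made by macrophages, and which CCl4 livers held at 32.0-fold the vehicle signal or more (limma, adjusted p = 0.168; with trend and robust estimation, 0.0247). Platelet markers, 3 of 5 on the array and 2 present, summed to 424 to 583, 427 to 627 and 398 to 565. The hepatocyte sum was 142432 to 155652 in vehicle, 144182 to 151888 in CCl4 rats 1 and 2, 103385 in CCl4 rat 3 and 143645 to 152883 in CCl4+Rot. Limma called none of these markers in any comparison, and trend and robust estimation called, beside Spp1, the mast cell proteases Cpa3 and Cma1 between CCl4+Rot and vehicle (adjusted p = 0.0103 and 0.016), and the part of any of these cells in the chemokine values was not tested.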

How the data were processed

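Total liver RNA was read on 9 arrays, 3 per group. The authors deposited 1 log2 signal and 1 detection call per probe set and array. The submitters' processing notes name MAS5 and affy, whose roles are not given there, and on each array the deposited log2 signals, taken back to a linear scale, average 500.0 after trimming 2% at either end. No further normalization was applied, all per-sample columns were used, and control probe sets were left out. Limma 3.58.1 in R 4.3.3 was fitted to all 3 groups, with Benjamini-Hochberg adjustment over all probe sets. P-values measure the spread between these rats, and their number limits the precision. The alternatives were trend and robust estimation, quantile normalization, median centring, other choices of probe set, detection filter and fold threshold, a fit of only the groups compared, a replicate block, the methods' test of single genes and leaving out each array. Fits were tested on simulated data. The genes, the 4 lists of other chemokine genes and the 11 marker lists were chosen with earlier results of these data known. Members present on 3 or more arrays were named with their values, and of those on fewer only Ccl2 and Cxcl2. Genes outside the rule were named after their values were seen. Upstream sequences are from RefSeq (GRCr8). Python 3.11.15, pandas 2.3.3 and matplotlib 3.10.9 were used. Some results, counted among the genes but not named, are not reported here.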

Additional observations from a re-analysis of the deposited data

How the results depend on the processing

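Between CCl4 and vehicle, limma called 0 of the 45 genes, trend and robust estimation 4 and the methods' t-test without adjustment 6 (Ccl2, Ccl5, Ccl21, Cxcl9, Cxcl12 and Cxcl16), the last against 5.71% of all probe sets. Trend and robust estimation without CCl4 rat 3, chosen after seeing the data, called 3 (Ccl21, Cxcl9 and Cxcl10), against 1.01%. Between CCl4+Rot and CCl4 the t-test called 2 (Ccl5 and Cxcl6), against 2.74%. Between CCl4+Rot and vehicle, trend and robust estimation called 3, the t-test 5 (Ccl21, Cx3cl1, Cxcl9, Cxcl16 and Cxcr4), against 6.85%, trend and robust estimation without CCl4 rat 3 called 4 (Ccl21, Cx3cl1, Cxcl9 and Cxcl16), against 1.18%, and leaving out 1 array gave 0 to 1, the 1 being Ccl21 without CCl4 replicate 2. After Benjamini-Hochberg adjustment the t-test called 0 in each comparison. Of the genes named in these counts, Cxcl6 and Cx3cl1 were present on no array, and Ccl2 on none in vehicle or CCl4. Their signals there are not told from background. Median centring moved the median log2 change between CCl4 and vehicle from 0.01 to -0.35 and that of Cxcr7 to -0.02. The median between CCl4+Rot and vehicle ran from 0.09 to 0.36 with 1 array left out, the highest without CCl4+Rot replicate 5. Centring takes the same 0.36, the difference of the mean array medians, from the change of every gene between CCl4 and vehicle. What lies behind that difference, and behind the shifts with 1 array left out, was not tested. Of 768 values of single genes under alternatives, 741 kept their direction and side of the threshold or moved by less than the spread, and 1 reversed.

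The replicate numbers do not pair the rats: CCl4 and vehicle share 1 number and CCl4 and CCl4+Rot share none. With the number as a random block (consensus correlation -0.0327), limma called 0 of the 45 genes in each comparison, and no call changed.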
